A study of Mus musculus with 18 samples.

Results

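The immediate early response genes described here are 10 genes, Fos, Fosb, Jun, Junb, Egr1, Egr2, Egr3, Ier2, Atf3 and Dusp1, out of 55450 in the gene tables of 18 mouse mammary tumors. They were chosen by name, as the symbol written in each gene identifier, and all 10 were found and passed the filter on low counts. Per the series design every tumor came from its own mouse. The tumors arose spontaneously in the mammary gland and were not treated, and RNA was taken from fresh tissue. All 18 genotype labels carry MMTV-Cre(+), a Cre transgene under a promoter active mainly, but not solely, in mammary epithelium, and Pikca(H1047R, het), the labels' spelling of 1 activated allele of the PI3-kinase gene Pik3ca. Only the Cbfb part of the label differs: 14 tumors are Cbfb(het), 3 are Cbfb(wt) and 1 is Cbfb(homo). What was changed in Cbfb is not stated in the labels. They give no age and no batch, and no time between removal of a tumor and lysis in Trizol.

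Immediate early genes are transcribed within minutes of a stimulus without new protein synthesis, because the factors that switch them on are already present in the cell. Growth factor signalling through ERK acts on serum response factor and its ETS partners, which bind CArG boxes, and cyclic AMP or calcium signalling acts on CREB, which binds the cyclic AMP response element. Fos and Fosb encode FOS proteins, which pair with the JUN proteins encoded by Jun and Junb to form the AP-1 transcription factor. Egr1, Egr2 and Egr3 encode zinc finger transcription factors, Ier2 a nuclear protein, Atf3 a stress-induced bZIP factor, and Dusp1 a phosphatase that switches off MAP kinases. The same genes are known to respond to the cutting, warming and ischaemia of tissue, so their RNA can change while a sample is being collected. No label records that handling, and its part in the levels below was not tested.

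Promoter windows were examined for the letters through which these signals are known to act. RefSeq windows from 250 bases before to 50 bases after a start site (GRCm38.p6) matched 7 of the 10 members, and Egr1, Egr3 and Ier2 had no entry. A cyclic AMP response element core, TGACG, was searched on both strands and was found in the windows of Fos, Fosb, Junb, Egr2, Atf3 and Dusp1, against 20.8% of all 32851 windows. The full palindrome TGACGTCA, which contains the core on both strands, was found in Dusp1, against 1.79% of all windows. A CArG box was found in Egr2, against 1.63%. These shares are per window, and Egr2 had 5 of the members' 11 windows, 3 of them overlapping, and 4 of the 5 held the CArG box, while the other members had 1 each. The letters TATAAA of the TATA box were found in Fos and Junb, against 13.6%, in Junb at the start site itself, and the AP-1 site TGACTCA in no member, against 5.2%. 4 windows are shown because these genes stand for the patterns described further on: Fos as the reference gene, Egr2 for the genes that were low in a few tumors, and Fosb and Dusp1 for the pair that was high in a few tumors. Capitals mark the core, the palindrome, the CArG box and the TATA box.
Fos, chr12:85473640-85473939, plus strand: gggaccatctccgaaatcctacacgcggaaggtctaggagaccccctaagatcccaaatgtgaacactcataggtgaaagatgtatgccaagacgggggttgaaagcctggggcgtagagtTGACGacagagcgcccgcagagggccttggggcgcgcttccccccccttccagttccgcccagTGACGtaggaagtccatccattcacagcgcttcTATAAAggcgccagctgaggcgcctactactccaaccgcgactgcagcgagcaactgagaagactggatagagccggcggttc
Egr2, chr10:67537620-67537919, plus strand: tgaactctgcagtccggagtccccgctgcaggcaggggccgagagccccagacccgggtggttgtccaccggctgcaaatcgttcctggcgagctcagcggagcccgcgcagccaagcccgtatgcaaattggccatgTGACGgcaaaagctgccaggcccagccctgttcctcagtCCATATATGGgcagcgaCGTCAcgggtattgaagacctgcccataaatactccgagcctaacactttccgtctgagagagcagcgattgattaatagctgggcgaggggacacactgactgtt
Fosb, chr7:19309996-19310295, minus strand: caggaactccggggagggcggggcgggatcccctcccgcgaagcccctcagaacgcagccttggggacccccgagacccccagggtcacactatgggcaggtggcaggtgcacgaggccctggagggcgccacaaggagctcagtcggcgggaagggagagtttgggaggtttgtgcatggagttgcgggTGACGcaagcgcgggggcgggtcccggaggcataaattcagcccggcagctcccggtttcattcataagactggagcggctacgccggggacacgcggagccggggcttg
Dusp1, chr17:26508423-26508722, minus strand: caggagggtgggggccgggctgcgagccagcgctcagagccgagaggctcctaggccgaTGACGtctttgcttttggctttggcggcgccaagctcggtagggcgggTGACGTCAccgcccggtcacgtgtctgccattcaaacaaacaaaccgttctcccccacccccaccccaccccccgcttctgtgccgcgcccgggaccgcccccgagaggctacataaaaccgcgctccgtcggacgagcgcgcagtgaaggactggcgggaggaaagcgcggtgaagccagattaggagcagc
In Fos the core begins 129 and 66 bases before the start site and the TATA box 33 bases before it. In Egr2 the CArG box begins 73 bases before the start site and lies between cores that begin 112 and 56 bases before it. In Fosb the core begins 60 bases before the start site. In Dusp1 the palindrome begins 143 bases before it and a further core 191 bases before it. A match is a string of letters and not a measured binding site. Letters outside these windows were not searched, so a motif not found in a member may lie elsewhere near the gene.

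Depth was even, at 33210239 to 40974166 rounded expected counts per tumor, and the members took 0.0339% to 0.13% of them, the largest share in Cbfb(wt) 1. Cbfb itself was at 12.8 to 71.1 TPM in the Cbfb(het) tumors (median 27.9), at 35.6, 12.03 and 22.1 TPM in the Cbfb(wt) tumors and at 10.8 TPM in the Cbfb(homo) tumor, so its RNA did not separate the tumors labelled het from those labelled wt. Cbfb(het) 10 and Cbfb(het) 14 were far more alike than any other pair. Their counts differed by a chi-square of 4.18 per degree of freedom, where sampling noise alone gives 1 and the next closest pair gave 85.9. This value cannot tell 2 tumors from 2 samples of 1 tumor. Both were kept as separate tumors because the series design has them so. Nothing in the labels accounts for their likeness, and if they shared a source the 14 Cbfb(het) tumors would hold 13 independent ones. Co-variation is therefore also given over the 16 tumors without both. 5 tumors were low in the 8 epithelial markers (Epcam, Cdh1, keratins and claudins). The summed level of these markers was 131 TPM in Cbfb(wt) 2, 187 in Cbfb(het) 10, 195 in Cbfb(het) 14, 745 in Cbfb(het) 1 and 1123 in Cbfb(het) 12, and 2532 to 6237 TPM in the other 13. No epithelial marker was at 0 in any tumor. Milk protein genes took up to 14.9% of a tumor's counts, which lowers the TPM of other genes there. TPM, which is scaled by gene length, is therefore used for levels between genes, and log2 CPM (counts scaled to library size, with TMM factors of 0.809 to 1.13) for differences between tumors.

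All 10 members were expressed in all 18 tumors, at levels that differed widely between genes. By median TPM, Junb was the highest (112.1), followed by Ier2 (60.1), Jun (57.0), Fos (42.8), Egr1 (41.1), Dusp1 (32.9), Atf3 (23.4), Egr2 (15.4), Egr3 (7.38) and Fosb (1.26). The neighbours Ier2 and Jun, and Fos and Egr1, differed by less than their spread across tumors. In bulk tumor RNA, fewer cells of a type and less RNA per cell cannot be told apart. The members fell into 2 kinds by how much they varied. Ier2, Jun, Fos, Junb and Atf3 varied 3.71- to 6.3-fold between the lowest and the highest tumor, and Egr1 10.01-fold. Dusp1 varied 21.8-fold, Egr3 62.0-fold, Egr2 81.4-fold and Fosb 84.2-fold. On the log2 CPM scale the SD across tumors was 0.45 for Jun, larger than that of 30.5% of all genes, and 1.76 for Egr3, larger than that of 91.9%.

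**Figure D1:**
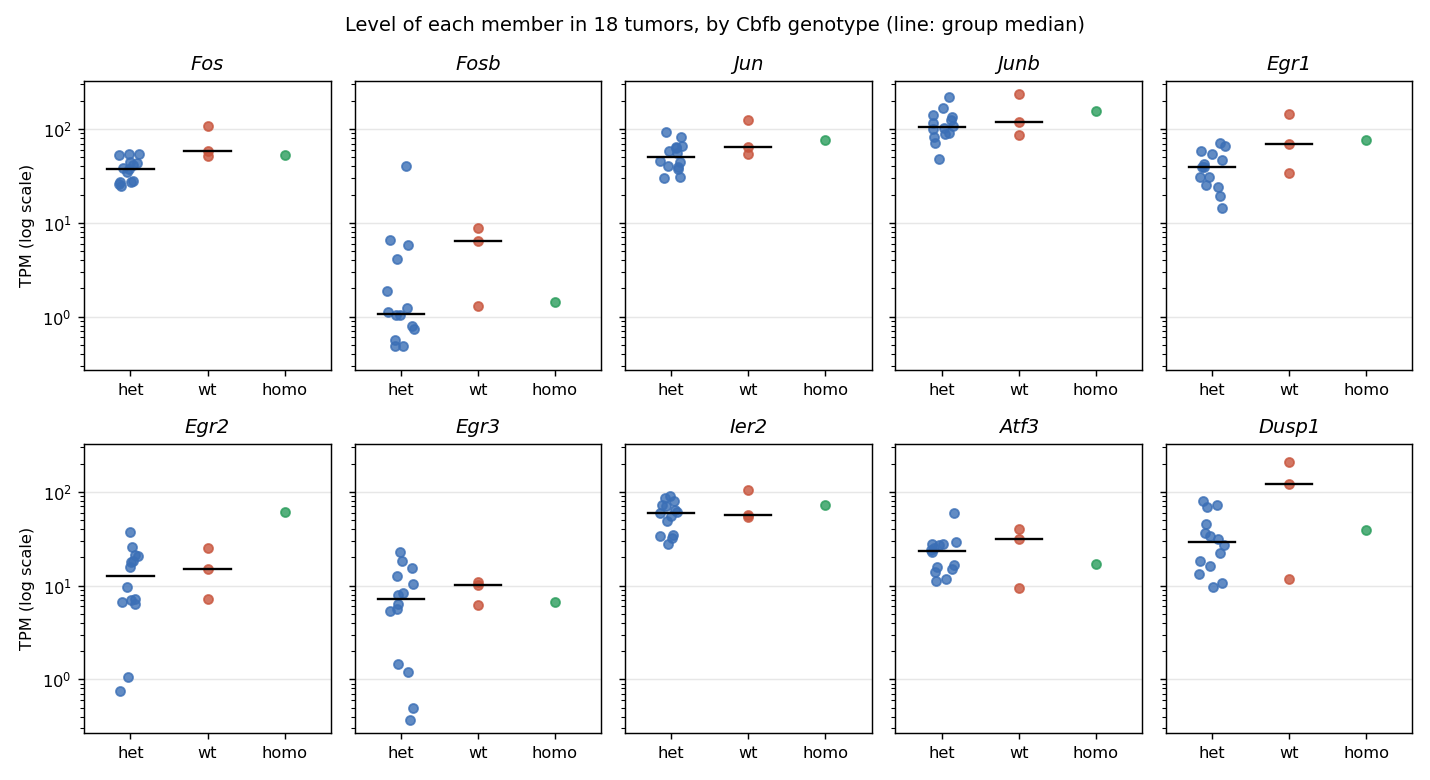
TPM of each member (log axis) in every tumor, by Cbfb genotype, with 1 point per tumor and a line at the median of groups with more than 1 tumor. Fos, Jun, Junb and Ier2 stay within a narrow band, Fosb has 1 high Cbfb(het) tumor at 40.4 TPM, and Egr2 and Egr3 have Cbfb(het) tumors near or below 1 TPM.

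Of the FOS genes, Fos (chr12:85473890-85477273, plus strand) ranged from 24.8 TPM in Cbfb(het) 8 to 54.7 in Cbfb(het) 13, with a median of 38.0 over the 14 Cbfb(het) tumors. It was at 109, 58.9 and 51.3 TPM in the Cbfb(wt) tumors and at 52.6 in the Cbfb(homo) tumor. By TPM Cbfb(wt) 1 stood above all other tumors and Cbfb(wt) 2 also lay above every Cbfb(het) tumor. Cbfb(wt) 3 was within the upper Cbfb(het) values. By log2 CPM Cbfb(wt) 1 was also the highest, but Cbfb(wt) 2 ranked 4, behind Cbfb(het) 3 and Cbfb(het) 1. On that scale Cbfb(wt) 3 ranked 8, and the lowest tumor was Cbfb(het) 12, with Cbfb(het) 8 at rank 12. Fosb (chr7:19302696-19310051, minus strand), whose protein and its truncated form mark repeated stimulation in the brain, was near 1 TPM in most tumors. Its Cbfb(het) values ran from 0.48 TPM in Cbfb(het) 8 over a median of 1.07 to 40.4 in Cbfb(het) 1. The Cbfb(wt) tumors were at 8.79, 6.45 and 1.29 TPM and the Cbfb(homo) tumor at 1.43. Cbfb(het) 1 was thus the only tumor above 10 TPM, and Cbfb(wt) 1, Cbfb(het) 14, Cbfb(wt) 2 and Cbfb(het) 10 followed at 5.81 to 8.79 TPM.

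The JUN genes were higher and steadier. Jun (chr4:95049034-95052222, minus strand) ran from 30.3 TPM in Cbfb(het) 4 over a median of 50.6 to 93.8 in Cbfb(het) 1. The Cbfb(wt) tumors were at 127, 63.9 and 54.8 TPM and the Cbfb(homo) tumor at 77.1. Junb (chr8:84974484-84978718, minus strand), a JUN protein that can restrain Jun's activity, ran from 47.5 TPM in Cbfb(het) 4 over a median of 105.6 to 219.9 in Cbfb(het) 9. The Cbfb(wt) tumors were at 236, 119.5 and 86.9 TPM and the Cbfb(homo) tumor at 156. For both genes the groups overlapped and Cbfb(wt) 1 was the highest of the 18 by TPM. Jun shares 232 exonic bases (7.28% of its exons) with its antisense gene Junos, and Junb shares 173 (7.52%) with Prdx2 on the opposite strand. The strand setting of the counting is not given in the sources used here, so reads from those stretches cannot be assigned with certainty.

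Among the EGR genes, Egr1 (chr18:34859823-34864984, plus strand) was the most even. It ran from 14.4 TPM in Cbfb(het) 8 over a median of 39.3 to 70.7 in Cbfb(het) 1, with 144.0, 69.4 and 34.2 TPM in the Cbfb(wt) tumors and 76.3 in the Cbfb(homo) tumor. Egr2 (chr10:67535475-67542188, plus strand), known as a regulator of myelination and of lymphocytes, was at 0.75 TPM in Cbfb(het) 10 and 1.06 in Cbfb(het) 14 and had a median of 12.7 and a maximum of 37.4 (Cbfb(het) 11) over the Cbfb(het) tumors. It was at 25.2, 7.20 and 15.1 TPM in the Cbfb(wt) tumors and at 61.1 in the Cbfb(homo) tumor, the highest of the 18. Egr3 (chr14:70077203-70082614, plus strand), a close relative of Egr2, was at 0.37 TPM in Cbfb(het) 14, 0.50 in Cbfb(het) 10, 1.19 in Cbfb(het) 12 and 1.45 in Cbfb(het) 4. Its Cbfb(het) median was 7.17 TPM and its maximum 22.9 (Cbfb(het) 7), and the Cbfb(wt) tumors were at 10.9, 6.28 and 10.2 TPM and the Cbfb(homo) tumor at 6.76. The low values of Egr2 and Egr3 all belonged to Cbfb(het) tumors, while the upper Cbfb(het) values overlapped the Cbfb(wt) tumors.

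Of the remaining members, Ier2 (chr8:84661331-84662852, minus strand) was lowest in the same 4 tumors as Egr3, at 27.8 TPM in Cbfb(het) 10, 31.9 in Cbfb(het) 14, 33.9 in Cbfb(het) 12 and 34.6 in Cbfb(het) 4. Its Cbfb(het) median was 60.1 TPM and its maximum 90.9, against 103, 54.4 and 56.6 in the Cbfb(wt) tumors and 73.1 in the Cbfb(homo) tumor. Atf3 (chr1:191170296-191218039, minus strand) ran from 11.2 TPM in Cbfb(het) 4 over a median of 23.4 to 59.5 in Cbfb(het) 1. The Cbfb(wt) tumors were at 39.7, 9.44 and 31.1 TPM, so they held the second highest and the lowest of the 18 values, and the Cbfb(homo) tumor was at 16.96 TPM. Dusp1 (chr17:26505590-26562128, minus strand) ran from 9.61 TPM in Cbfb(het) 4 over a median of 29.4 to 80.6 in Cbfb(het) 1, with 122, 209.1 and 11.7 TPM in the Cbfb(wt) tumors and 39.2 in the Cbfb(homo) tumor. By TPM the 6 highest tumors for Dusp1 were Cbfb(wt) 2, Cbfb(wt) 1, Cbfb(het) 1, Cbfb(het) 10, Cbfb(het) 14 and Cbfb(het) 12, which include all 5 tumors low in epithelial markers. By log2 CPM Cbfb(het) 12 ranked 8 (5.16), behind Cbfb(het) 9 (5.43) and Cbfb(homo) 1 (5.20).

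Genotype was compared between Cbfb(het) and Cbfb(wt), as labelled, and no member passed the threshold. Over all 18494 genes tested, edgeR's quasi-likelihood test with Benjamini-Hochberg adjustment called 0 (0%), as did DESeq2 and limma-voom, and 624 genes had an unadjusted p under 0.05. 9 of the 10 members had a negative log2 fold change, against 46.8% of all genes, and the median over members was -0.13 against 0.03 over all genes. 3 members, Fos, Egr1 and Dusp1, had an unadjusted p under 0.05 and a lower level in Cbfb(het), which held for 1.91% of all genes. Their log2 fold changes were -0.70 ± 0.28 (SE, edgeR unadjusted p = 0.0215) for Fos, -0.88 ± 0.34 (p = 0.0181) for Egr1 and -1.53 ± 0.58 (p = 0.0166) for Dusp1, each with an adjusted p of 0.999 over all genes. The remaining members lay between -0.42 ± 0.27 (Jun) and 0.15 ± 0.91 (Egr3). Of the 14 Cbfb(het) tumors, 9 were below every Cbfb(wt) tumor for Fos and for Fosb on the log2 CPM scale. The count was 6 for Jun, 4 for Egr1, Egr3 and Ier2, 3 for Egr2, 2 for Junb and 0 for Atf3 and Dusp1. It was not made over all genes, so it does not set Fos apart. For Fosb the fold change of mean counts was -0.10 ± 1.13, but -1.27 without Cbfb(het) 1, the tumor that held most of the group's Fosb.

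These differences depended largely on single Cbfb(wt) tumors. Without Cbfb(wt) 1, 3 of the 10 members had a negative fold change, against 46.2% of all genes, and the median over members was 0.29. Fos was then at -0.31 (unadjusted p = 0.338), Egr1 at -0.22 (p = 0.556) and Dusp1 at -1.47 (p = 0.0486) by edgeR. Dusp1 was at -0.78 (edgeR unadjusted p = 0.274) without Cbfb(wt) 2. Of the 45 other immediate early genes tested, 32 had a negative fold change (median -0.15), and 17 without Cbfb(wt) 1 (median 0.08). No cell type marker passed the threshold between the groups. At an unadjusted p under 0.05 all 6 adipocyte markers had a higher level in Cbfb(het) (median log2 fold change 5.13), as did 271 of all 18494 genes, and 1 of the 6 was under 0.05 without Cbfb(wt) 1. Of the 8 macrophage markers 7 had a negative fold change (median -0.53), none with an unadjusted p under 0.05. Their part in the members' differences was not tested.

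**Figure D2:**
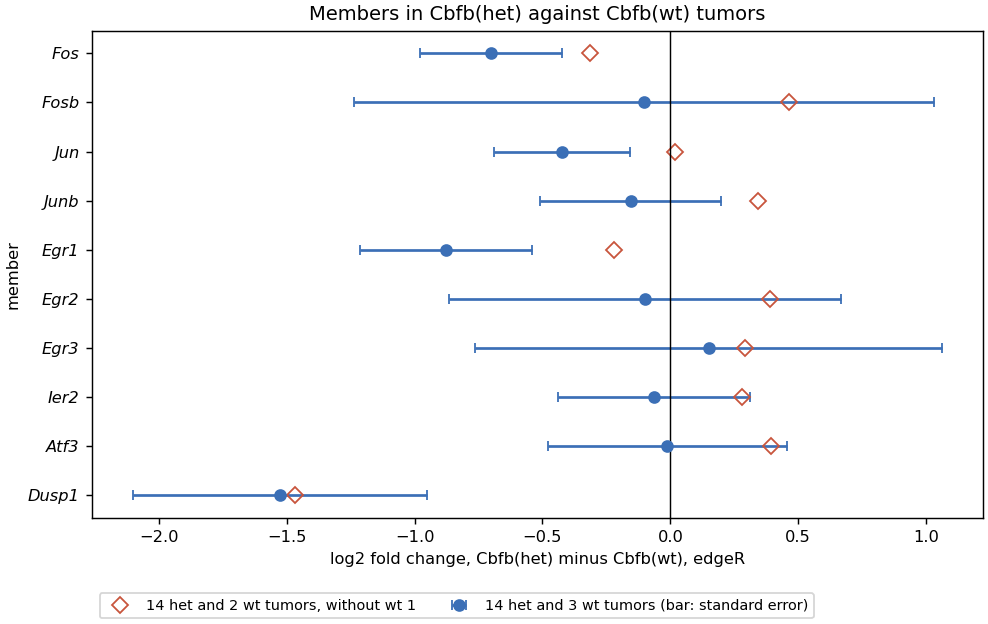
Log2 fold change of each member, Cbfb(het) minus Cbfb(wt), from edgeR over all genes. Filled points with bars are the estimate and its standard error over 14 and 3 tumors, and open diamonds are the estimate without Cbfb(wt) 1. Without that tumor 7 of the 10 members lie above 0, and Dusp1 stays at -1.47.

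The single Cbfb(homo) tumor had no replicate and entered no test. Its Egr2 level of 6.73 log2 CPM was above the highest of the other 17 tumors (5.86). Its Egr1 level ranked 2 and its Jun level 3 of 18, and the other 7 members ranked 6 to 14.

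Across tumors, the members varied together only in part. Pearson's r of log2 CPM, over 18 tumors, had a median of 0.41 over the 45 pairs of members and ranged from -0.42 to 0.89, with 38 pairs above 0, while the median r of all genes with Fos was 0.02. Without Cbfb(het) 10 and Cbfb(het) 14 the median was 0.50 and 37 pairs were above 0. The points share library, depth and tissue makeup, so these values are descriptions. The 7 negative pairs joined Fosb or Dusp1 with Egr2, Egr3 or Ier2, and Dusp1 with Atf3 (-0.06).

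**Figure D3:**
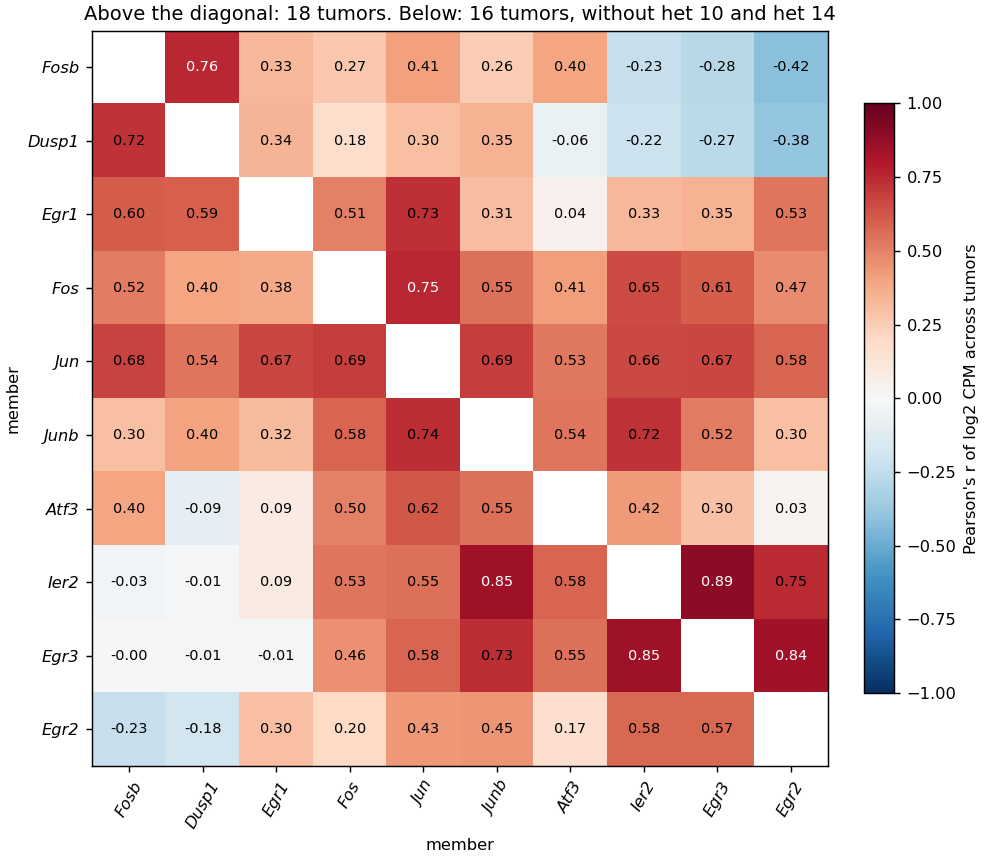
Pearson's r of log2 CPM for each pair of members, above the diagonal over all 18 tumors and below it over 16 tumors without Cbfb(het) 10 and 14. Fosb and Dusp1 form a block at the upper left (0.76 and 0.72), Egr2, Egr3 and Ier2 a block at the lower right, and r between the blocks is near or below 0.

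Fos, the gene most often used as a marker of recent stimulation, had no gene that rose with it past the threshold. Each gene's log2 CPM was regressed on that of Fos over 18 tumors with limma, with Benjamini-Hochberg adjustment over the 20327 genes of each fit. With Fos 0% of genes rose at an adjusted p under 0.05, and 877 genes (4.31%) rose at an unadjusted p under 0.05. The latter included 6 of the 9 other members: Jun, Junb, Egr1, Egr2, Egr3 and Ier2. Over the 16 tumors they included 5, with Fosb and Atf3 in and Egr1, Egr2 and Egr3 out. The closest was Jun, with r = 0.75 (permutation p = 3e-04) and Spearman's rho = 0.57 (permutation p = 0.0143), and with an adjusted p of 0.200 by limma. Without Cbfb(wt) 1 and Cbfb(het) 12, the tumors farthest from the median of Fos, r fell to 0.53. Over the 16 tumors r with Jun was 0.69 (permutation p = 0.00417) and rho was 0.46 (permutation p = 0.0753). There r fell to 0.26 without Cbfb(wt) 1 and Cbfb(het) 12, so it rested largely on them. For Junb over 18 tumors, r = 0.55 (permutation p = 0.018) and rho = 0.42 (p = 0.0868), and r was 0.28 without Cbfb(wt) 1 and Cbfb(het) 12. For Egr1, r = 0.51 (permutation p = 0.0324), rho = 0.40 (p = 0.0999) and r was 0.24 without them, so both relations rested largely on those tumors. 9 pairs with Fos were computed, and the lowest limma adjusted p over all genes among them was that of Jun.

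The relations with Jun had this form only in part. With Jun, 0.0738% of genes rose past the adjusted threshold, none of them a member, and 5.19% rose at an unadjusted p under 0.05, among them 7 of the 9 other members. Jun and Egr1 had r = 0.73 (permutation p = 0.00071) and rho = 0.69 (p = 0.00192), with r = 0.51 without Cbfb(wt) 1 and Cbfb(het) 1. Jun and Junb had r = 0.69 (permutation p = 0.00175; rho = 0.64, p = 0.00563), and 0.65 without the same tumors. Leaving them out lowered r of Jun with Atf3 from 0.525 to 0.29. It raised r of Jun from 0.58 to 0.74 with Egr2, from 0.67 to 0.84 with Egr3 and from 0.66 to 0.76 with Ier2. Over the 16 tumors r of Jun with Egr2, Egr3 and Ier2 was 0.43, 0.58 and 0.55. With Junb, 0.059% of genes rose, and again no member. With Egr1 and with Atf3, 0% of genes rose by limma, and 671 and 976 genes did at an unadjusted p under 0.05. Among the pairs of members with Atf3, r was at most 0.54 over 18 tumors, with Junb (permutation p = 0.0219; rho = 0.58, p = 0.0134; limma adjusted p = 0.338), and it was 0.50 without Cbfb(wt) 1 and Cbfb(het) 9.

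Egr2, Egr3 and Ier2 formed 1 set. With Ier2 rose 14.9% of all genes and 5 of the 9 other members (Fos, Jun, Junb, Egr2 and Egr3), with Egr3 14.8% of genes and 4 members (Fos, Jun, Egr2 and Ier2), and with Egr2 9.94% of genes and 3 members (Jun, Egr3 and Ier2). Among the pairs of members that passed, the largest slope was that of Egr3 on Ier2, at 2.58 ± 0.31 log2 units per log2 unit (limma adjusted p = 0.000138). Cbfb(het) 10 and Cbfb(het) 14 lay apart from the rest for Egr2 (0.51 and 0.63 log2 CPM) and Egr3 (0.16 and 0.03), so correlations of these genes are given without them, over 16 tumors. Egr3 and Ier2 then had r = 0.85 (permutation p = 4e-05) and rho = 0.75 (p = 0.00109), and r = 0.64 when Cbfb(het) 12 and Cbfb(het) 4 were also left out. Egr2 and Egr3 had r = 0.57 (permutation p = 0.0201; rho = 0.50, p = 0.0522), and Egr2 and Ier2 r = 0.58 (permutation p = 0.0194; rho = 0.49, p = 0.0539). Without Cbfb(het) 12 and Cbfb(homo) 1 these were 0.56 and 0.46. Over these 16 tumors 7.66% of genes and 2 members (Junb and Egr3) rose with Ier2, 4.21% of genes and 2 members (Junb and Ier2) with Egr3, and 3.47% of genes and no member with Egr2. Junb and Ier2 had r = 0.85 over them (permutation p = 3e-05, rho = 0.81, p = 0.00022) and 0.81 without Cbfb(wt) 1 and Cbfb(het) 9. Ier2 was 1 of the 0.123% of genes that rose with Junb. Junb and Egr3 had r = 0.73 over the 16 tumors (permutation p = 0.001, rho = 0.59, p = 0.0165). In these tumors Junb was thus closer to Egr3 and Ier2 than Egr2 was, and the place of Egr2 in the set rested largely on Cbfb(het) 10 and 14.

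Fosb and Dusp1 formed the other set. They had r = 0.76 over 18 tumors (permutation p = 0.00019; rho = 0.75, p = 0.00051), and 0.76 without Cbfb(het) 1 and Cbfb(wt) 1, the tumors farthest from the median of Fosb. Dusp1 was the only member that rose with Fosb, at 0.56 ± 0.11 log2 units per log2 unit (limma adjusted p = 0.0121), among 4.88% of all genes. Fosb was the only member that rose with Dusp1, at 1.03 ± 0.21 (limma adjusted p = 0.00576), among 8.01% of all genes. Over the 16 tumors r was 0.72 (permutation p = 0.00279; rho = 0.66, p = 0.00657), and the limma adjusted p of Dusp1 on Fosb was 0.0399, with 1.84% of genes rising with Fosb and 3.04% with Dusp1. There the pair did not stand apart: Fosb and Jun had r = 0.68 (permutation p = 0.00469; rho = 0.67, p = 0.00559). Without Cbfb(het) 1 and Cbfb(wt) 1 this fell to 0.37, against 0.69 for Fosb and Dusp1. With Egr1 r was 0.60 for Fosb and 0.59 for Dusp1, and Dusp1 and Jun had r = 0.54. Among these added relations the lowest limma adjusted p was 0.068, of Jun on Fosb. In all, 14 of the 90 ordered pairs of members passed the threshold over 18 tumors and 7 over 16. With the epithelial marker level as a covariate 6 passed.

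**Figure D4:**
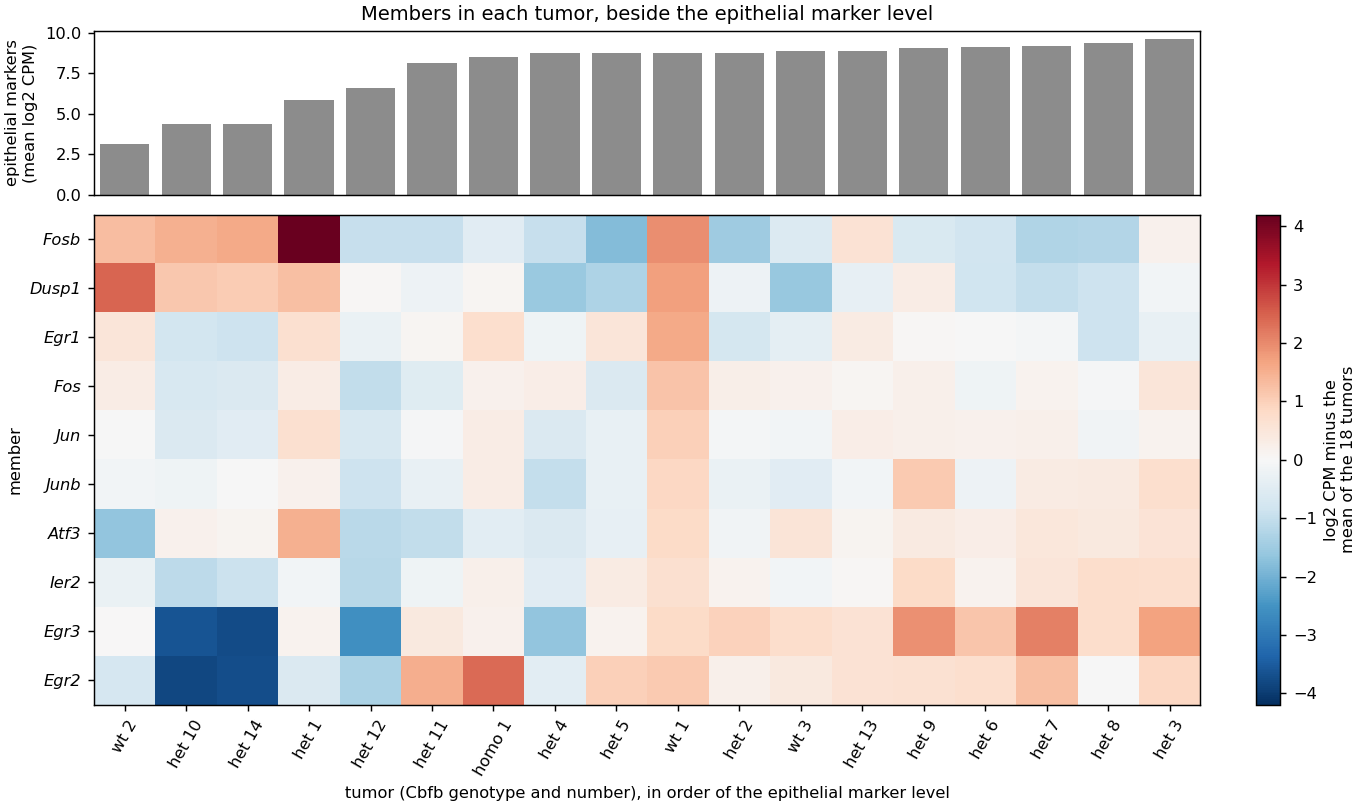
Below, log2 CPM of each member in each tumor minus the member's mean over the 18 tumors. Above, the mean log2 CPM of the 8 epithelial markers, by which the tumors are ordered from left to right. Dusp1 is above its mean in the 5 leftmost tumors, Fosb in 4 of them, and Egr2 and Egr3 reach their lowest values in Cbfb(het) 10 and 14.

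Over 18 tumors the 2 sets moved with epithelial markers in opposite directions. The epithelial markers rose with Ier2 for 8 of 8, with Egr2 for 7 and with Egr3 for 6 (limma adjusted p under 0.05), where 14.9%, 9.94% and 14.8% of all genes did. With Dusp1 all 8 fell, against 9.24% of all genes, and with Fosb 3 fell, against 5.04%. The fibroblast markers (collagens, Pdgfra, Dcn, Lum and Fbln1) fell with Egr2 for 6 of 7, with Egr3 for 5 and with Ier2 for 4, against 9.21%, 13.2% and 13.4% of all genes, and with Dusp1 5 of 7 rose, against 8.01%. Their summed level was 20800 TPM in Cbfb(het) 10, 20910 in Cbfb(het) 14, 15640 in Cbfb(het) 12, 7788 in Cbfb(wt) 2 and 3270 in Cbfb(het) 1, and 123 to 2005 TPM in the other 13 tumors. Of the 7 endothelial markers 5 rose with Dusp1 and 5 fell with Egr3, against 8.01% and 13.2% of all genes. Over the 16 tumors, 6 of 8 epithelial markers still fell with Dusp1, against 4.47% of all genes. With Dusp1 1 of 7 fibroblast and 0 of 7 endothelial markers then rose, against 3.04% of all genes. With Egr2 and Egr3 no epithelial marker then rose, and with Ier2 1 did, where 3.47%, 4.21% and 7.66% of all genes rose. No fibroblast marker then fell with Egr2, Egr3 or Ier2, where 0.615%, 1.87% and 5.87% of all genes fell. No endothelial marker then fell with Egr3, and no epithelial marker with Fosb, with which 0.999% of all genes fell. The part of the tumors' cell makeup in the members' levels was not tested beyond the covariate above.

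**Figure D5:**
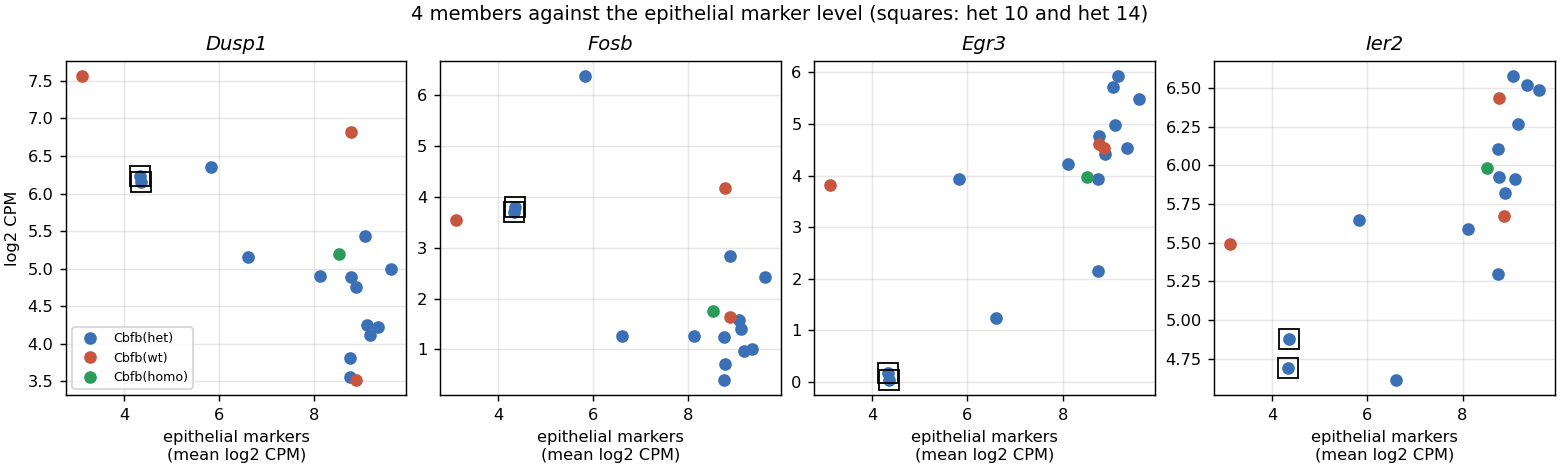
Log2 CPM of Dusp1, Fosb, Egr3 and Ier2 against the mean log2 CPM of 8 epithelial markers, 1 point per tumor, coloured by Cbfb genotype, with squares around Cbfb(het) 10 and 14. Dusp1 is higher to the left, where the 5 tumors with low markers lie, and Egr3 and Ier2 are lowest in Cbfb(het) tumors among them.

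Of the 5 neutrophil markers 2 rose with Ier2, 2 with Egr3 and 2 with Dusp1, against 14.9%, 14.8% and 8.01% of all genes. In the 16 tumors these counts were 3, 2 and 0, against 7.66%, 4.21% and 3.04% of all genes. With Egr2 0 rose over 18 tumors and 2 over 16, against 9.94% and 3.47% of all genes. With Junb all 5 had a positive slope (median r 0.60, and 0.68 over 16 tumors) and 0 passed. The mean log2 CPM of the 5 markers had r = 0.80 with Junb over 18 tumors, the highest of the members. It had 0.56 with Ier2 and 0.45 with Egr3. Over the 16 tumors these were 0.81, 0.78 and 0.83. Picked after their values were seen, S100a8 and S100a9, abundant calcium-binding proteins of neutrophils that epithelial cells can also make, rose with Ier2 and Egr3 over 18 tumors and over 16. The slope of S100a8 on Ier2 was 2.65 ± 0.59 log2 units per log2 unit (limma adjusted p = 0.00408, and 0.00497 over 16 tumors). The markers that rose with Dusp1 were others, Csf3r and Cxcr2, receptors for G-CSF and for chemokines, with limma adjusted p of 0.0155 and 0.0367. Over 18 tumors the r with Ier2 was -0.02 for Csf3r, 0.16 for Cxcr2 and 0.25 for Retnlg. The median r of the 5 markers with Ier2 was 0.25 over 18 tumors and 0.62 over 16. Over the 16 tumors the 3 markers that rose with Ier2 were thus not S100a8 and S100a9 alone. The summed level of the 5 neutrophil markers ran from 47.9 TPM in Cbfb(het) 12 to 10350 in Cbfb(het) 9. S100a8 and S100a9, at means of 1705 and 1493 TPM, made up most of it. Csf3r, Cxcr2 and Retnlg had means of 13.9, 6.45 and 19.3 TPM. Cbfb(het) 12 and Cbfb(het) 9 had the lowest and the highest Ier2 on the log2 CPM scale. By TPM Ier2 was instead lowest in Cbfb(het) 10 and highest in Cbfb(wt) 1. The part of the neutrophil markers in the levels of Ier2, Junb and the other members was not tested.

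Other genes of the immediate early response followed the members unevenly. Of 46 such genes 45 were tested (Egr4 was below the filter), and 38 had a positive slope on Fos, against 51.8% of all genes, with a median r of 0.33 against 0.02. None passed the threshold with Fos, and the same was so with Egr1 and Atf3. The largest slope on Fos was that of Phlda1, a growth-factor-induced gene, at 1.40 ± 0.48 (limma adjusted p = 0.384), and the smallest that of Ccn2, a matricellular protein, at -1.001 ± 0.28 (adjusted p = 0.293). Ier3, the most abundant of them at a mean of 211 TPM, had a slope of 1.08 ± 0.32 (adjusted p = 0.313). 14 of the 45 rose with Egr3 (14.8% of all genes did), 13 with Ier2 (14.9%), 11 with Dusp1 (8.01%) and 8 with Fosb (4.88%). With Egr2 6 rose (9.94% of all genes), with Jun 3 (0.0738%) and with Junb 1 (0.059%). Over the 16 tumors 8 rose with Egr3 (4.21% of all genes), 10 with Ier2 (7.66%), 9 with Dusp1 (3.04%) and 9 with Fosb (1.84%). With Egr2 0 then rose (3.47%), with Jun 3 (0.064%) and with Junb 2 (0.123%).

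The 2 sets also had different companions among these genes. Picked after their values were seen, Fosl1, a FOS family member, and Socs3, an inhibitor of cytokine signalling, rose with Dusp1, at slopes of 1.55 ± 0.19 and 0.42 ± 0.06 (limma adjusted p = 0.0023 each), and with Fosb, at 1.09 ± 0.17 (adjusted p = 0.00372) and 0.29 ± 0.05 (adjusted p = 0.00503). Fosl1 ran from 0.74 TPM to 173 TPM, its highest value in Cbfb(het) 1, where Fosb was also highest. Picked in the same way, Zfp36, which destabilizes cytokine mRNAs, rose with Ier2 at 0.55 ± 0.07 (adjusted p = 0.000271) and with Egr3 at 0.18 ± 0.03 (adjusted p = 0.000698). All 6 of these relations also passed the threshold over the 16 tumors.

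Of the upstream pathway, heat shock and hypoxia genes, none passed the threshold with Fos. Of 21 kinases and factors upstream (ERK and p38 kinases, Srf, Elk factors, Creb1 and others), 13 had a positive slope on Fos and 0 passed, from Crem at 0.53 ± 0.20 (limma adjusted p = 0.408) to Elk3 at -0.48 ± 0.32 (adjusted p = 0.572). Mapk3, which encodes ERK1, was the most abundant at a mean of 149 TPM. With Dusp1 6 of the 21 rose and 1 fell, against 8.01% and 9.24% of all genes, and with Fosb 5 rose, against 4.88%. With Ier2 2 rose and 5 fell, against 14.9% and 13.4%. In the 16 tumors 4 rose and 1 fell with Dusp1, against 3.04% and 4.47% of all genes, and 4 rose with Fosb, against 1.84%. With Ier2 2 then rose and 0 fell, against 7.66% and 5.87%. Mapk14, which encodes p38 alpha and was picked after its values were seen, was among those that rose with both, at 0.16 ± 0.05 on Dusp1 (limma adjusted p = 0.0261, and 0.0256 over 16 tumors). Of 14 heat shock genes 11 had a positive slope on Fos and 0 passed, with Hspb1 at 0.75 ± 0.38 the largest and Hspb8 at -0.51 ± 0.43 the smallest, and Hsp90ab1 the most abundant at a mean of 1528 TPM. With Atf3 13 of the 14 had a positive slope (median r 0.47, against 0.00 over all genes) and 0 passed. The inducible Hspa1a and Hspa1b, picked likewise, rose with Fosb, at 0.40 ± 0.10 (limma adjusted p = 0.0253) and 0.32 ± 0.09 (adjusted p = 0.0401). They were the only 2 of the 14 that did, against 4.88% of all genes. Both were highest in Cbfb(het) 1 (177 and 357 TPM, with means of 30.5 and 81.0), where Fosb was also highest. Of the 14, 1 rose with Junb, 1 with Ier2 and 1 with Egr3, against 0.059%, 14.9% and 14.8% of all genes. Hspb1, picked likewise, rose with Junb at 1.48 ± 0.20 (limma adjusted p = 0.0122, and 0.0137 over 16 tumors). It also rose with Ier2, at 1.03 ± 0.27 (adjusted p = 0.00991, and 0.00672 over 16 tumors). Of 12 hypoxia genes 8 had a positive slope on Fos and 0 passed, from Egln3 at 0.89 ± 0.46 to P4ha1 at -0.69 ± 0.43. Ldha was the most abundant at a mean of 1342 TPM. The median r of the hypoxia genes with Fos was 0.12 over all tumors and 0.46 over the 16 tumors, where again 0 passed. With Jun it was 0.2 and 0.50. It went the other way with Fosb (0.33 and 0.14) and with Dusp1 (0.24 and 0.02). The part of the hypoxia genes in the members' levels was not tested.

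Among the genes most like the members as a group, by mean Pearson r to the 10 members over 18 tumors, were Csf3 (0.60), Eif1ad (0.59), Noct (0.57), Akirin1, Zfp36 and Plk3 (0.56 each) and Pim1 (0.55). Csf3 encodes the cytokine G-CSF, and its level ran from 0.24 to 16.1 TPM. No single gene followed all members closely: the lowest r of Csf3 was 0.33, with Dusp1, and that of Zfp36 was -0.01, with Fosb. For each member the nearest gene by r was not another member. It was Trib1 for Fos (0.83), Icmt for Fosb (0.92), Csf3 for Jun (0.88), Spsb3 for Junb (0.90), Nfkb1 for Egr1 (0.87), Rgs20 for Egr2 (0.93), Zbtb7b for Egr3 (0.92), Cebpb for Ier2 (0.93), Pcbp1 for Atf3 (0.83) and Adora2a for Dusp1 (0.91). The closest other member ranked 14 among all genes for Fos (Jun), 15 for Egr1 (Jun), and 18 for Egr3 (Ier2) and for Ier2 (Egr3). It ranked 47 for Jun (Fos), 49 for Egr2 (Egr3) and 98 for Junb (Ier2). For Dusp1 it ranked 170 (Fosb), for Fosb 198 (Dusp1) and for Atf3 544 (Junb). For Egr2 and Egr3 these values rest in part on Cbfb(het) 10 and 14. Over the 16 tumors r was 0.78 for Egr2 with Rgs20 and 0.85 for Egr3 with Zbtb7b.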

How the data were processed

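RNA of 18 tumors, each from its own mouse per the series design, was sequenced from TruSeq stranded mRNA libraries, per the labels' protocols. Each tumor's deposited table holds expected counts (reads assigned to a gene by RSEM's estimate, without normalization) and TPM (made comparable between genes of different length), per the file headers. Per the submitters' processing notes, reads were handled with STAR (version 2.7.0f) and RSEM (version 1.3.1) on mm10. The strand setting is not given in the sources used here. Gene positions come from GENCODE M21 (GRCm38), which holds all 55450 gene IDs.

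Expected counts were rounded (6.2% to 7.19% of a tumor's values were not whole). Cbfb(het) was compared with Cbfb(wt) over 17 tumors with edgeR 4.0.16 (filterByExpr, TMM, robust quasi-likelihood test), where the SE is the size of the log2 fold change over the square root of F. Levels were log2 CPM (TMM, prior count 2). Each gene was regressed on each member over 18 tumors with limma 3.58.1 (trend, robust) in R 4.3.3. P-values were adjusted over all genes (Benjamini-Hochberg, threshold 0.05). Permutation tests were two-sided with 100000 resamples. Fits were tested on simulated data. P-values measure the spread between tumors, of which each was sampled once.

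The members, lists and tests were chosen with earlier results of these data known. The text names all members, up to 4 genes per pathway list by slope on Fos or mean TPM, the 8 genes with the highest mean r to the members (mean log2 CPM of at least 1; 1 of them is not reported here), the nearest gene of each member, and genes it marks as picked after their values were seen. Markers of 11 cell types were examined, and those not described had at most 2 genes called with any member. Alternatives were other scalings, filters, DESeq2 1.42.0, limma-voom, log2(TPM + 1), covariates and leaving out tumors.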

Additional observations from a re-analysis of the deposited data

How the results depend on the processing

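With 3 Cbfb(wt) tumors, single tumors set the genotype comparison. The number of genes past the threshold was 0, and 1 (Tex11) with no low-count filter or with all 18 tumors in the fit. The number of members with a negative fold change was 3 to 10 with each tumor left out in turn, and 7 to 10 under the other alternatives. Members of small fold change reversed: Egr3 was at -0.015 with limma-voom (quality weights), and Egr2 at 0.002 with Cbfb(het) 10 and 14 merged. With both left out, chosen after seeing the data as was the genotype fit without TMM factors, Egr2 was at 0.083 and Ier2 at 0.038. With each tumor left out in turn, the log2 fold change ran from -0.46 to 0.39 for Atf3, -0.062 to 0.29 for Egr3, -0.45 to 0.39 for Egr2, -0.24 to 0.28 for Ier2, -1.27 to 0.46 for Fosb, -0.62 to 0.020 for Jun and -0.40 to 0.34 for Junb. Fos, Egr1 and Dusp1 stayed negative in all of these alternatives. Fosb was at -1.77 with limma-voom. The number of genes rising with Fos was 0, was 1 (Trib1) with no TMM factor, and was 0 to 2 with each tumor left out. Of the ordered pairs of members, 14 rose together, 6 with the epithelial marker level as a covariate, 7 without Cbfb(het) 10 and 14, 10 to 19 under the other alternatives, and 11 to 18 with each tumor left out in turn. The cause of these changes was not tested. The median r over pairs was 0.26 to 0.52 in all alternatives. No paired analysis was possible because the replicate numbers only follow the order of the samples.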
